A study of Mus musculus with 8 samples.

Results

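TOXdeltaN-positive CD8 T cells were compared with TOXdeltaN-negative cells of the same kind of culture. The 4 libraries of this comparison were picked by column name out of the 8 libraries of the series: 2 TOXdeltaN-positive and 2 TOXdeltaN-negative, with a replicate 1 and a replicate 2 in each group. All 31815 gene rows were used, and 13329 genes had enough counts to be tested. The other 4 libraries, TOXFL-positive and TOXFL-negative, entered the fits to help estimate the spread.

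All groups share the source tissue and the culture steps, apart from the vector. Mouse OT-I T cells, which carry a transgenic T cell receptor for an ovalbumin peptide, were taken from spleen and held with that peptide for 3 days. A retrovirus carrying TOXFL or TOXdeltaN was added at 24 h, and cells were sorted on day 5. The vectors express GFP from an internal ribosome entry site behind the TOX form, so GFP marks carriers, and the GFP-positive groups were the brightest 20% of them while the GFP-negative groups were the cells without GFP. The comparison therefore holds TOXdeltaN, the vector and the sort on brightness together, and cells with a GFP-only vector were not analysed here. RNA (8 ng per library) went through SMART-Seq amplification and Nextera tagmentation, which keeps no strand. The labels do not tell whether replicates came from separate mice or cultures, and a p-value here reflects no more than how these libraries scatter, which may be technical.

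TOX works in the nucleus, where its HMG box, a fold that binds DNA, is found in several factors of its family. It is known for its part in CD4 T cell development in the thymus and for the state of CD8 T cells under persistent antigen, called exhaustion, in which inhibitory receptors such as PD-1 stay on the surface and cytokine output declines. TOXdeltaN is the shorter of the 2 forms in the series; the labels call its columns short. In bulk libraries such as these, fewer cells of a type and less RNA per cell cannot be told apart.

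The 4 TOXdeltaN libraries held 25059112 to 29883258 counts each. T cell identity was plain in all of them: the 5 measured CD8 T cell markers summed to between 3281 and 3510 CPM (counts scaled to 1e6 per library, with TMM factors), against 2.557 to 7.218 CPM for the CD4 T, NK, gamma-delta and regulatory T cell markers, 13.99 to 17.48 for the B cell markers, 3.316 to 4.531 for the myeloid and dendritic markers and 0.3596 to 4.339 for the erythroid markers. Ms4a1, Pax5 and Adgre1, defining markers of B cells and macrophages, had 0 counts in these libraries. Cd79b made up most of the B cell sum, at 16.8 and 16.5 CPM in the negative and 13.1 and 13.8 CPM in the positive libraries. Tyrobp, of the myeloid list, was at 0.479 and 0.537 CPM in the negative and 0.137 and 0.0799 CPM in the positive libraries. Both were lower in both positive libraries than in either negative one, as were 20.8% of all tested genes. The erythroid sum was highest in TOXdeltaN-positive replicate 1, with Hbb-bs at 1.37 CPM there and 0.103 to 0.269 CPM in the others. No marker of another cell type was called in any direction, and the part of such cells in the results was not tested beyond these levels.

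The TOXdeltaN-positive libraries were the least alike of the 4 pairs of replicates. Their chi-square per degree of freedom was 41.88, against 11.967 for the TOXdeltaN-negative pair, and the SD of the log2 difference between replicates, over genes of at least 8 CPM, was 0.304 against 0.184. Transcript length ordered this difference. Among 9038 genes of at least 8 CPM, the bin with the shortest summed exons of 10 equal bins (204 to 1844 bases) stood higher in TOXdeltaN-positive replicate 2 than in replicate 1 by a median log2 of 0.23, and the bin with the longest (10057 to 123179 bases) stood lower by a median log2 difference of −0.22. The same bins differed by 0.0411 and −0.0264 between the TOXdeltaN-negative libraries. In the comparison itself the bins of the shortest and longest genes had medians of 0.0667 and −0.0714 in replicate number 1 and of 0.27 and −0.26 in replicate number 2, so the slope per doubling of length was −0.0413 in the first and −0.16 in the second. What made replicate 2 differ by length was not tested. Values by replicate number or with a correction for length are therefore given for some results.

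**Figure D1:**
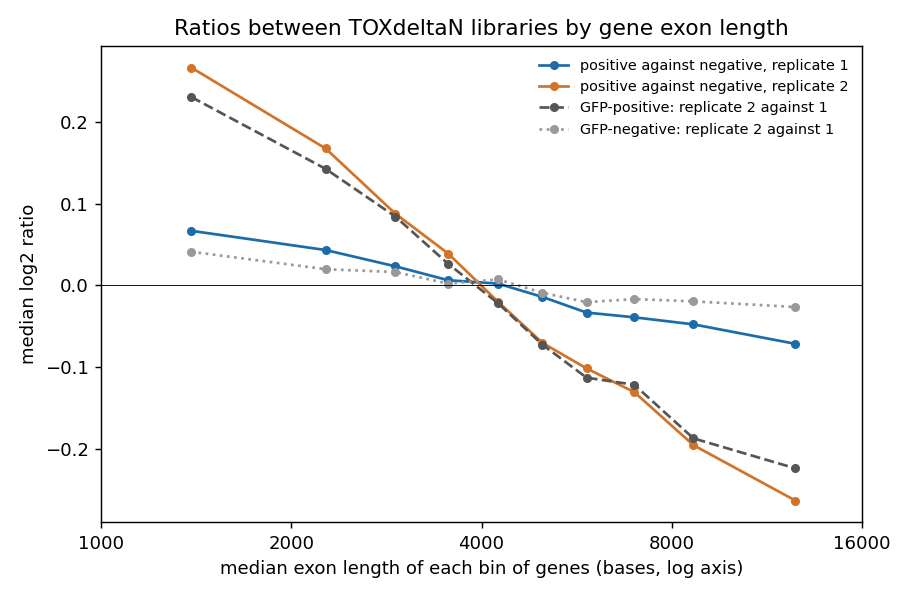
Median log2 ratio between TOXdeltaN libraries (vertical axis) in 10 equal bins of genes ordered by summed exon length (horizontal axis, bases, log scale), for 9038 genes of at least 8 CPM. The line for replicate number 2 falls from 0.27 to −0.26 and follows the line between the GFP-positive replicates, while replicate number 1 runs from 0.0667 to −0.0714.

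Differences were tested with the edgeR quasi-likelihood F-test and Benjamini-Hochberg adjustment over all 13329 genes, and a gene is called when its adjusted p was under 0.05. The fit without a block called 4 genes, 0.03% of those tested: Tox rose and the others, with Slc28a2b and Gbp10 among them, fell. At an unadjusted p under 0.05 this fit had 1632 genes, 807 of them higher. With a block for the replicate number (the blocked fit below) 220 genes were called, 1.65% of those tested, with 103 higher (0.773%) and 117 lower (0.878%). No label says what a replicate number marks. The pairing was inferred from how same-numbered libraries of these data deviated together, and the p-values of the blocked fit assume it. Apart from the first 4, every gene described below as risen or fallen was called in the blocked fit and not in the fit without the block. All 220 moved the same way in both replicate numbers, and in 208 of them the groups did not overlap. The fit picked these genes from the same libraries, so neither count is separate support. Of all 13329 tested genes, 4185 were higher and 4141 lower in the positive library of both replicate numbers. Both positive libraries lay above both negative ones for 21.1% of all tested genes and below for 20.8%. The changes were moderate in size: the median absolute log2 change of the 220 was 0.55, and 17 rose and 7 fell at least 2-fold.

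The blocked count leaned on the TOXdeltaN-negative libraries: 0 genes were called without replicate 1 of that group and 8 without replicate 2. It was 290 without TOXdeltaN-positive replicate 2, with 150 of the 220 among them, and 2650 without TOXdeltaN-positive replicate 1, with all 220 among them. In both of these omissions the lone positive library is assumed to vary like the other groups. Without a TOXFL-negative library (replicate 1 or 2) the count was 49 or 47. Genes called higher had a median exon length of 2568 bases and genes called lower of 5679, against 4180 for all tested genes. A blocked fit with a per-library correction for length called 277 genes, which included 181 of the 220 (82.3% of the 220 and 65.3% of the 277). It changed the counts of calls in 15 of the 39 gene lists described below, by at most 2 rises or 2 falls a list. Of the 39 list medians in the blocked fit, 30 moved by over 1.5 times or changed sign when 1 TOXdeltaN library was left out. Those of the GTPase, interferon-stimulated, naive and memory, DNA replication, costimulatory, surface enzyme, MHC class I, long-transcript and RNA-binding lists did not. Each omission filtered the genes anew, so some lists gained a tested gene, which can move a median too. The TOX family median went from 0.85 with 2 genes to −0.19 with 3 genes when TOXdeltaN-negative replicate 2 was left out.

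**Figure D2:**
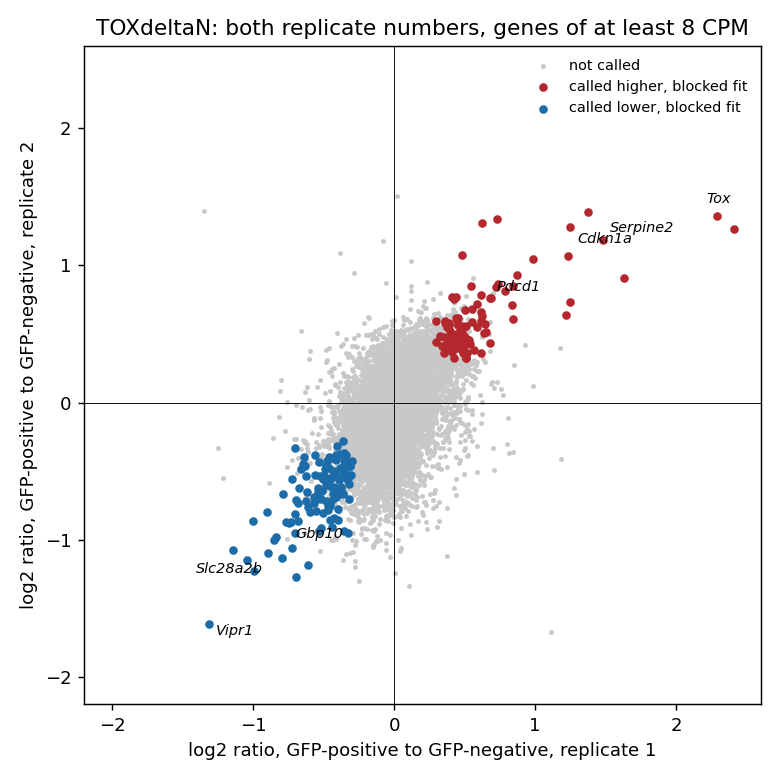
Log2 ratio of TOXdeltaN-positive to TOXdeltaN-negative cells in replicate number 1 (horizontal) and number 2 (vertical) for genes of at least 8 CPM, with 0.1 CPM added, coloured by the call of the blocked fit (red higher, blue lower, grey not called). Called genes lie in the quadrants where both numbers have the same sign. Across the 9040 genes the ratios had a Pearson r of 0.46, as a description over genes that are not independent, and Pde2a lies outside the axes.

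The number of genes that differed in their change between TOXFL and TOXdeltaN depended on the fit. The test of the difference of the GFP effects (TOXFL minus TOXdeltaN) called 0 genes (0.0%) in edgeR without the block, with 318 at an unadjusted p under 0.05, and 0 with the block, with 494 at an unadjusted p under 0.05 and a lowest adjusted p of 0.0989. limma-voom called 0 genes and DESeq2 5 in the same test, edgeR called 45 without a low-count filter, and the blocked fit called 449 without TOXdeltaN-positive replicate 1. Of the 103 genes higher with TOXdeltaN 101 had the same sign with TOXFL and 75 were called there too in the blocked fit, and of the 117 lower ones 115 had the same sign and 73 were called. For all tested genes the TOXFL comparison called 1.51% higher and 1.97% lower in that fit, and 68.95% of the genes with a TOXdeltaN change above 0 and 70.88% of those below 0 had the same sign with TOXFL. These comparisons use separate libraries but share each gene's estimated spread and replicate effect. The 4 genes of opposite sign were Zfp91, Gm4737, Gm49342 and Gm49356. The effector transcription factor gene Batf3 had a log2 change of 2.45 with TOXdeltaN and 1.07 with TOXFL in the blocked fit (difference −1.38, SE 0.517, adjusted p = 0.989), and the opioid peptide gene Penk one of 1.02 against 2.24 (difference 1.22, SE 0.263, adjusted p = 0.989). Neither difference passed the test in that fit.

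Tox, the gene delivered by the vector, was the check of the labels and the only gene to rise in the fit without the block. Tox (ENSMUSG00000041272.11, GRCm38 chromosome 4, 6686353 to 6991557, minus strand) was at 21.8 and 32.2 CPM in TOXdeltaN-negative replicates 1 and 2 and at 107 and 82.9 CPM in TOXdeltaN-positive replicates 1 and 2. Both positive libraries lay above both negative ones. The gene-level counts add endogenous and vector reads together, and do not separate the short form from the full-length one. The log2 change was 1.82 (SE 0.219, adjusted p = 0.0419). Its relative Tox4 was at 185 and 178 CPM in the negative and 173 and 154 CPM in the positive libraries and was not called (log2 −0.15, adjusted p = 0.565). Tox2 had 4 to 12 counts and Tox3 0 or 1 count per TOXdeltaN library, too few to test.

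Among the genes that fell in that fit were Slc28a2b and Gbp10. Slc28a2b, a concentrative nucleoside transporter gene (ENSMUSG00000079071.2, chromosome 2, 122484941 to 122528040), was at 109 and 105.4 CPM in the negative and 58.5 and 49.1 CPM in the positive libraries. It fell by 0.99 on the log2 scale (SE 0.11, adjusted p = 0.0419), without overlap. Its close copy Slc28a2 lies beside it, so the split of reads between the copies is uncertain. Gbp10, a guanylate-binding GTPase gene induced by interferon (ENSMUSG00000105096.1, chromosome 5, 105215699 to 105239533), was at 58.9 and 58.8 CPM in the negative and 35.0 and 31.9 CPM in the positive libraries (log2 −0.82, SE 0.0951, adjusted p = 0.0419). Each call of Tox, Slc28a2b and Gbp10 held in 1 of 8 omissions of a library, that of TOXdeltaN-positive replicate 1, and ended in the other 7, with adjusted p up to 0.311 for Tox, 0.311 for Slc28a2b and 0.374 for Gbp10. In the blocked fit they were called too, and kept the call in 7, 6 and 6 of the 8 omissions.

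**Figure D3:**
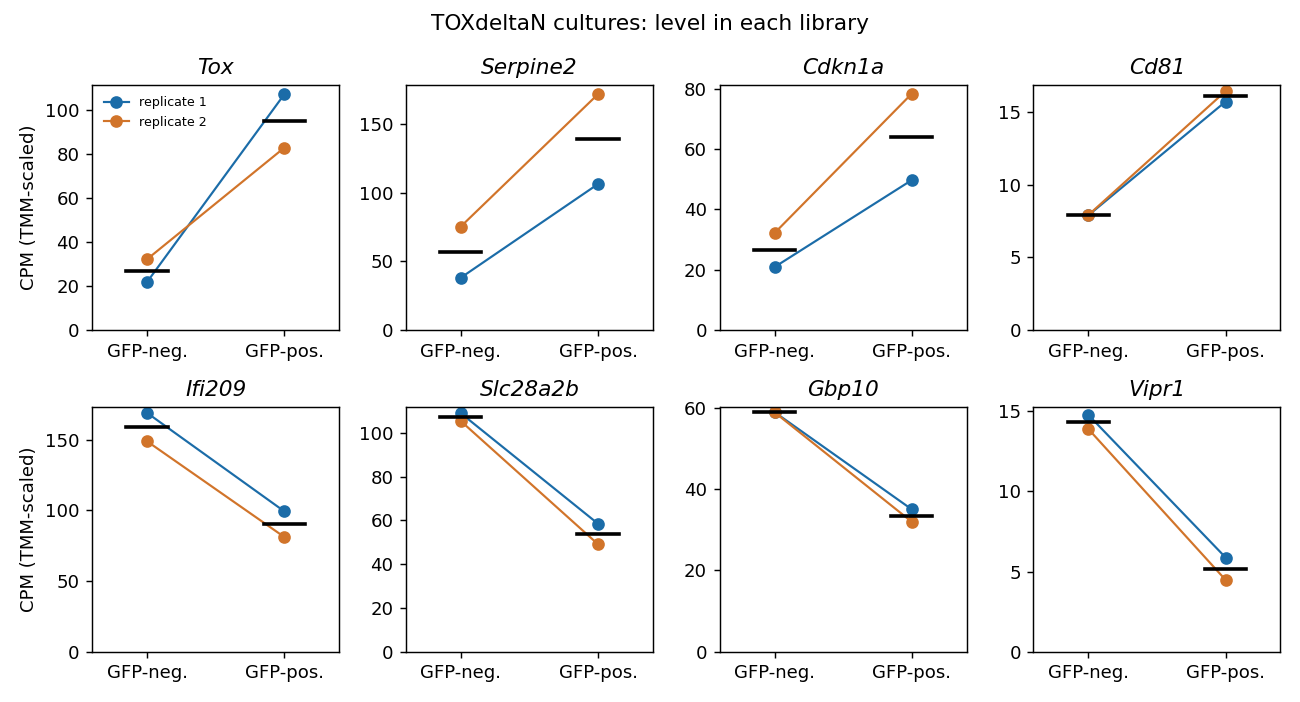
CPM (vertical axis, from 0) of 8 genes in the TOXdeltaN-negative and TOXdeltaN-positive libraries, with replicate numbers joined by lines and group means as black bars. Tox, Serpine2, Cdkn1a and Cd81 are higher in both positive libraries, and Ifi209, Slc28a2b, Gbp10 and Vipr1 lower, with the replicates of Serpine2 and Cdkn1a far apart within each group and their lines nearly parallel.

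Among the largest rises of the blocked fit, Serpine2 and Cdkn1a shared the lowest adjusted p with Tubb6. Serpine2 encodes an extracellular inhibitor of serine proteases (chromosome 1, 79794197 to 79861180). It stood at 38.05 and 75.3 CPM in the negative and 106 and 172 CPM in the positive libraries, a rise of 1.34 (log2, SE 0.103, adjusted p = 0.000772). The groups did not overlap. Cdkn1a encodes p21, a p53-inducible inhibitor of cyclin-dependent kinases (chromosome 17, 29090976 to 29100727). It was at 20.9 and 32.2 CPM in the negative and 49.7 and 78.4 CPM in the positive libraries (log2 1.27, SE 0.0995, adjusted p = 0.000772). The beta-tubulin gene Tubb6 went from 27.0 and 41.4 to 63.4 and 86.8 CPM (log2 1.15, SE 0.0904, adjusted p = 0.000772). In all of these replicate 2 was above replicate 1 in both groups, and the fit without the block did not call them (adjusted p = 0.351, 0.219 and 0.259).

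Cd81 behaved otherwise, with close replicates. Cd81, a tetraspanin that organises receptors in the membrane (chromosome 7, 143052739 to 143067934), was at 7.91 and 7.92 CPM in the negative and 15.8 and 16.5 CPM in the positive libraries. It rose by 1.02 on the log2 scale (SE 0.133, adjusted p = 0.0104) and narrowly missed the threshold without the block (adjusted p = 0.0596). It was the 1 called member of 14 tested tetraspanins, whose median log2 change was −0.0154. The steepest rises belonged to genes of low level. Batf3, a transcription factor of effector T cells and dendritic cells, went from 0.684 and 1.01 to 3.76 and 5.52 CPM (log2 2.45, SE 0.376, adjusted p = 0.0202). Cox6b2, a testis form of a respiratory chain subunit, went from 0.753 and 2.15 to 4.37 and 6.39 CPM (log2 1.97, adjusted p = 0.026). The thyroglobulin gene Tg went from 3.83 and 10.3 to 10.1 and 27.3 CPM (log2 1.39, adjusted p = 0.00655), so that positive replicate 1 lay just under negative replicate 2 and the rise shows only within replicate numbers. Asb2, a subunit that gives a ubiquitin ligase its targets, went from 4.86 and 9.90 to 15.3 and 18.7 CPM (log2 1.27, adjusted p = 0.0124). A row named Zfp91 also rose (log2 2.57, adjusted p = 0.0387), from 2.26 and 0.504 to 8.07 and 8.03 CPM; it is a minor identifier that shares its symbol with a main one that was not called.

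Inhibitory receptors, the surface proteins that dampen T cell responses, were called in part. Of 13 tested, 2 rose, none fell and the list's median log2 change was 0.0598, against 0.0054 for all genes. The blocked median was 0.0811, and 0.28 without TOXdeltaN-positive replicate 2, and with the length correction it was 0.0326, with Cd244a as a further rise (log2 0.90, adjusted p = 0.0384, against 0.0505 without the correction). Pdcd1, which encodes PD-1, stood at 66.4 and 101 CPM in the negative and 106 and 172 CPM in the positive libraries (log2 0.72, SE 0.0862, adjusted p = 0.00655). Cd160 stood at 86.0 and 101.7 CPM in the negative and 126 and 152 CPM in the positive libraries (log2 0.57, SE 0.0801, adjusted p = 0.0126). Both genes were higher in both positive libraries than in either negative one. Lag3 was at 37.0 and 54.5 CPM in the negative and 43.8 and 55.5 CPM in the positive libraries (log2 0.13, adjusted p = 0.494). Ctla4 had a log2 change of 0.0523 (adjusted p = 0.789) and Tigit one of 0.45 (adjusted p = 0.0839), and neither was called. Havcr2, which encodes TIM-3, was low in all 4 libraries, at 0.0336 to 0.547 CPM. Leaving out either TOXdeltaN-negative library ended both calls of this list.

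Costimulatory receptors and ligands, which add to the signal of the T cell receptor, gave 2 rises in 17: the pair OX40 (Tnfrsf4) and OX40 ligand (Tnfsf4). The list's median was 0.0836, and 3 members had both positive libraries above both negative ones while 4 had them below. With the block and the length correction 3 were called higher and 2 lower, and the median was 0.0363. Without the block and without TOXdeltaN-positive replicate 2 the median was −0.1073. Tnfrsf4 stood at 44.0 and 67.4 CPM in the negative and 59.3 and 114 CPM in the positive libraries (log2 0.60, adjusted p = 0.0327), with an overlap between positive replicate 1 and negative replicate 2. Tnfsf4 went from 5.34 and 5.67 to 8.27 and 14.2 CPM (log2 0.98, adjusted p = 0.044), with no overlap. Of 12 granule and cytotoxic genes only the granzyme gene Gzmc rose, from 7.22 and 6.08 to 12.03 and 15.5 CPM (log2 1.06, adjusted p = 0.042); granzyme genes are close copies, so its reads are uncertain. Gzmb, a granzyme of killer T cells, was at 241 and 231 CPM in the negative and 275 and 306 CPM in the positive libraries and was not called (log2 0.30, adjusted p = 0.104), and the pore protein gene Prf1 had a log2 change of −0.0048 (adjusted p = 0.987). Of 12 cytokine and chemokine genes only Penk, which encodes the precursor of enkephalin peptides, rose (log2 1.02, adjusted p = 0.0324), from 2.02 and 7.89 to 3.62 and 17.5 CPM. The groups overlapped for Penk, and without the block its change was −0.45 when TOXdeltaN-positive replicate 2 was left out. The effector cytokine genes Ifng (log2 0.22, adjusted p = 0.744), Tnf (0.0363, adjusted p = 0.927) and Il2 (0.69, adjusted p = 0.612) were not called, and Il2 was at 0.171 to 0.48 CPM.

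Few transcription factor genes were called. Of 18 effector and memory factors Batf3 and Bhlhe40 rose, and Bhlhe40, a repressor needed for mitochondrial fitness of resident T cells, went from 64.1 and 79.9 to 87.2 and 106 CPM (log2 0.43, adjusted p = 0.0397). None of the 21 factors induced by T cell receptor signalling was called. Their member of lowest p, Nr4a2, was at 35.8 and 59.4 CPM in the negative and 46.1 and 73.4 CPM in the positive libraries (log2 0.33, adjusted p = 0.0888), while Nr4a1 had a log2 change of 0.11 (adjusted p = 0.604), Nr4a3 one of −0.50 (adjusted p = 0.167) and Myc one of −0.20 (adjusted p = 0.195). The 19 genes of the receptor complex and its proximal kinases and the 20 feedback regulators had no call either, with medians of −0.11 and 0.0677. Their members of lowest p were the phosphatase gene Ptprc (log2 −0.39, adjusted p = 0.0584; −0.24 and −0.54 by replicate number and −0.19 with the length correction) and Spry1 (log2 −0.49, adjusted p = 0.112).

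Guanylate-binding proteins and immunity-related GTPases were the list with the most calls. These GTPases are induced by interferon-gamma and attack the vacuoles of intracellular microbes. Of 15 tested genes 14 fell in the blocked fit, none rose, and 13 were lower in both positive libraries than in either negative one. Over all tested genes these shares were 0.878% called lower and 20.8% lower in both positive libraries. The median log2 change was −0.48, with −0.46 in replicate number 1 and −0.53 in number 2, and −0.51 with the block and the length correction. Their median exon length, 3873 bases, was near that of all tested genes. With the block, 15 were called without TOXdeltaN-positive replicate 1, 12 without TOXdeltaN-positive replicate 2 and 0 without either TOXdeltaN-negative library.

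Gbp2 (chromosome 3, 142620602 to 142638008) went from 357 and 306 to 246 and 195 CPM (log2 −0.60, SE 0.0795, adjusted p = 0.0104). Gbp6 went from 417 and 326 to 298 and 198 CPM (log2 −0.60, SE 0.0856, adjusted p = 0.0135). Gbp9 went from 132 and 100 to 87.5 and 57.5 CPM (log2 −0.69, SE 0.102, adjusted p = 0.0154). For each of these the higher positive library lay below the lower negative library. Among the immunity-related GTPases, Igtp stood at 794 and 633 CPM in the negative and 596 and 486 CPM in the positive libraries (log2 −0.40, adjusted p = 0.0324). Iigp1 fell from 117 and 92.0 to 84.8 and 65.9 CPM (log2 −0.47, adjusted p = 0.0285), and Irgm1 from 258 and 184 to 194 and 138 CPM (log2 −0.42, adjusted p = 0.0391), with an overlap of the groups for Irgm1. The smallest calls were Tgtp1 (log2 −0.36, adjusted p = 0.0478) and Tgtp2 (log2 −0.37, adjusted p = 0.0461). Gbp3 was the 1 member not called, at 116 and 92.4 CPM in the negative and 98.5 and 76.9 CPM in the positive libraries (log2 −0.25, adjusted p = 0.136). Many of these genes are close copies of each other, and Gbp4, Gbp8 and Gbp9 overlap in the annotation as Igtp and Irgm2 do, so the split of reads among them is uncertain.

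**Figure D4:**
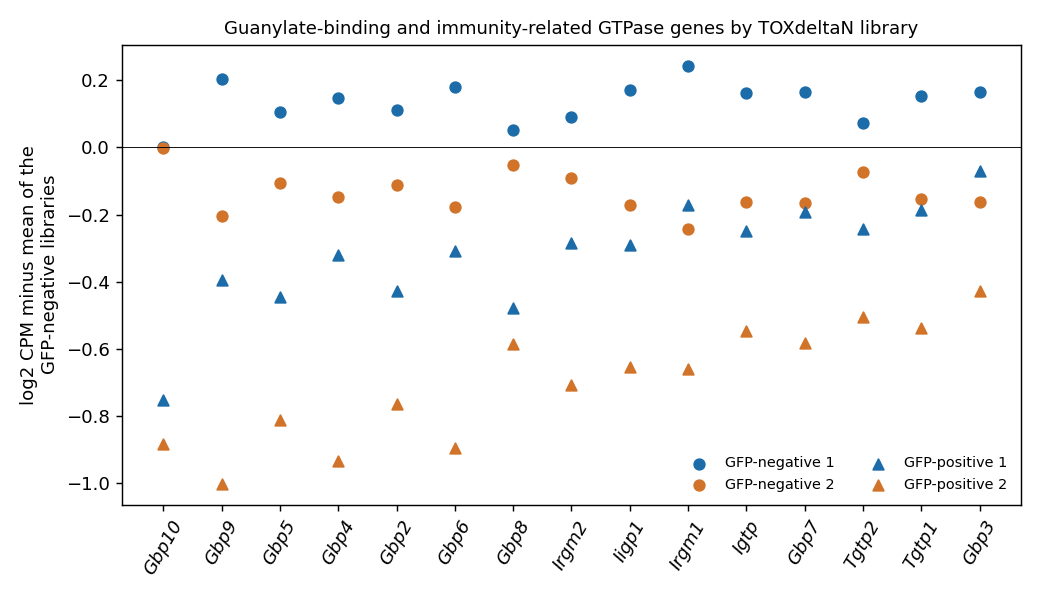
Log2 CPM of 15 guanylate-binding and immunity-related GTPase genes in each TOXdeltaN library, minus the mean of the 2 TOXdeltaN-negative libraries (circles negative, triangles positive, blue replicate 1, orange replicate 2), ordered by fold change. Within each replicate number the triangle lies below the circle in all 15 genes, and Gbp3 and Irgm1 are those where the groups overlap.

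Letters of interferon motifs stood before the starts of these genes, and Gbp7, Igtp and Tgtp2 are shown because all 3 fell and both motifs searched are in each of them. The sequences are the 250 bases before the RefSeq start in GRCm38.p6, printed in the direction of the gene: chr3:142530086-142530335 (plus strand) for Gbp7, chr11:58199306-58199555 (plus strand) for Igtp and chr11:49064213-49064462 (minus strand) for Tgtp2. Capitals mark GAAANNGAAA, the core of the interferon-stimulated response element read by IRF proteins, and TTCNNNGAA, the gamma-activated site of interferon-gamma signalling, on either strand.
Gbp7: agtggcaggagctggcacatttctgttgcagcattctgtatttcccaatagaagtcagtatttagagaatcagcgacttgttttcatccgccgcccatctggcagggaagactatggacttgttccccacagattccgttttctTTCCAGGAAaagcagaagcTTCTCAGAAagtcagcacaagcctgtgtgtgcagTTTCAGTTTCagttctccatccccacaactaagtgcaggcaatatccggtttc
Igtp: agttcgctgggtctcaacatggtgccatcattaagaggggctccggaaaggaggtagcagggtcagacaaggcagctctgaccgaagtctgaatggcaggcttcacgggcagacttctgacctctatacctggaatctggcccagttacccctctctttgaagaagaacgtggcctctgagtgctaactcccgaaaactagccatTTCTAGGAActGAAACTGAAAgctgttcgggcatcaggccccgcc
Tgtp2: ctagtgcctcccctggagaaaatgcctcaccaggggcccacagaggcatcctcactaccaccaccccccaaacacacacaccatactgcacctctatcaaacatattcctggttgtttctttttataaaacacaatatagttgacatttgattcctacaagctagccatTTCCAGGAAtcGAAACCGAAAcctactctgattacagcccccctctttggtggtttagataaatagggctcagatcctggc
Of 16 listed genes 9 had a RefSeq entry. The core GAAANNGAAA was found in 9 of those 9, against 3.46% of all 27025 gene symbols with a window of this length, and TTCNNNGAA in 6 of 9, against 8.13%. A match is a description of the letters and not of binding. The list was made of GTPases known to be induced by interferon, so its shares of interferon motifs do not bear on the fall. Gbp3, the member that was not called, had 2 matches of the core in a window. A link of the motifs to the fall was not tested.

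Interferon-stimulated genes fell in part. Of 22 tested, 7 fell, none rose, and the median was −0.44. They included 4 genes of the Ifi200 cluster on chromosome 1, whose products sense DNA in nucleus and cytosol. Ifi209 stood at 169 and 149 CPM in the negative and 99.2 and 81.1 CPM in the positive libraries (log2 −0.82, SE 0.0839, adjusted p = 0.00293). Ifi208 went from 94.3 and 71.5 to 57.9 and 37.0 CPM (log2 −0.82, adjusted p = 0.00596). Ifi206 went from 172 and 132 to 106 and 54.6 CPM (log2 −0.97, adjusted p = 0.0124), and Ifi213 had a log2 change of −0.73 (adjusted p = 0.0315). The groups did not overlap for Ifi209, Ifi208 and Ifi206, but these genes too are close copies. Samhd1, a nucleotide hydrolase that restricts viruses, went from 703 and 608 to 504 and 452 CPM (log2 −0.45, adjusted p = 0.0271). Rtp4 fell as well (log2 −0.57, adjusted p = 0.0473). Ifit1, a gene typical of type I interferon, was not called, at 11.02 and 6.92 CPM in the negative and 6.46 and 3.88 CPM in the positive libraries (log2 −0.79, adjusted p = 0.0803). Isg15 had a log2 change of 0.0976 (adjusted p = 0.841) and Bst2 one of 0.23 (adjusted p = 0.327). The list's median was −0.29 in replicate number 1 and −0.49 in number 2, and leaving out either TOXdeltaN-negative library ended all 7 calls.

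Among receptors for cytokines, 3 of 22 fell, none rose and the median was −0.28, with −0.19 in replicate number 1 and −0.33 in number 2. The median was −0.16 without the block when TOXdeltaN-positive replicate 2 was left out, and with the block 0 or 1 gene was called without TOXdeltaN-negative replicate 1 or 2. The interferon-gamma receptor chain gene Ifngr1 stood at 976 and 958 CPM in the negative and 735 and 769 CPM in the positive libraries (log2 −0.36, SE 0.0691, adjusted p = 0.0391), without overlap. The interleukin-6 receptor gene Il6ra fell from 49.96 and 32.5 to 24.2 and 14.6 CPM (log2 −1.096, SE 0.101, adjusted p = 0.00167), and the interleukin-18 receptor gene Il18r1 from 40.8 and 42.0 to 26.2 and 31.9 CPM (log2 −0.52, adjusted p = 0.041). Il7r, the receptor chain for interleukin-7, was not called: it was at 67.5 and 65.3 CPM in the negative and 63.0 and 70.5 CPM in the positive libraries (log2 0.0047, SE 0.0926, adjusted p = 0.984). The 17 genes of MHC class I presentation, whose regulator Nlrc5 was at 348 and 277 CPM in the negative and 284 and 143 CPM in the positive libraries (log2 −0.60, adjusted p = 0.0816), gave no call and a median of −0.13.

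Some genes of naive and memory T cells fell. Of 21 tested 8 fell, none rose, the median was −0.30, and 15 had both positive libraries below both negative ones. Of all tested genes 0.878% were called lower and 20.8% had both positive libraries below both negative ones. Among the 8 were Igfbp4, Ly6c2, S1pr1, St6gal1, Klf3, Klf2 and Dapl1. Igfbp4, a secreted binding protein of insulin-like growth factors and a gene of quiescent T cells, stood at 83.6 and 40.2 CPM in the negative and 37.7 and 19.1 CPM in the positive libraries (log2 −1.11, SE 0.0971, adjusted p = 0.0012). The replicates differed about as much as the groups, and the fall was alike within each replicate number (log2 −1.15 and −1.07). Klf2, the transcription factor that keeps T cells recirculating, went from 479 and 396 to 367 and 305 CPM (log2 −0.38, adjusted p = 0.0398). Its target S1pr1, the receptor that guides T cells out of lymphoid organs, went from 396 and 277 to 246 and 167 CPM (log2 −0.71, SE 0.089, adjusted p = 0.0087). Ly6c2, a surface protein of memory cells with close copies, went from 157 and 107 to 78.6 and 58.7 CPM (log2 −0.93, adjusted p = 0.00296), and the sialyltransferase gene St6gal1 from 35.2 and 38.5 to 19.4 and 19.2 CPM (log2 −0.93, adjusted p = 0.0131). The groups stayed apart for these 4 genes.

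The transcription factors that define stem-like T cells did not pass. Tcf7, which encodes TCF-1, stood at 843 and 835 CPM in the negative and 758 and 613 CPM in the positive libraries (log2 −0.30, SE 0.0896, adjusted p = 0.124). Lef1 had a log2 change of −0.24 (adjusted p = 0.135) and the lymph node homing receptor gene Ccr7 one of −0.30 (adjusted p = 0.0724). With the block and the length correction Ccr7 was called lower (log2 −0.41, adjusted p = 0.0176). Without TOXdeltaN-negative replicate 1 or 2 the blocked fit called 0 or 2 of this list, and without TOXdeltaN-positive replicate 2 it called 11. Chemokine receptors, adhesion and egress genes gave 2 falls in 20, with a median of −0.0145: the integrin gene Itga4 (log2 −0.50, adjusted p = 0.0361), which was not called with the length correction (adjusted p = 0.104), and Cxcr3, the receptor for interferon-induced chemokines (log2 −0.43, adjusted p = 0.0478).

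Surface enzymes, transporters and peptide receptors held 4 falls in 18 and no rise. Vipr1, the receptor for vasoactive intestinal peptide (chromosome 9, 121642716 to 121672954), had the largest fall by the naming rule: it stood at 14.8 and 13.9 CPM in the negative and 5.88 and 4.48 CPM in the positive libraries (log2 −1.47, SE 0.197, adjusted p = 0.0104). It missed the threshold without the block (adjusted p = 0.0692). The cannabinoid receptor gene Cnr2 went from 11.6 and 12.1 to 6.63 and 5.48 CPM (log2 −0.97, adjusted p = 0.0437), with close replicates and no overlap. Art2b, an ADP-ribosyltransferase gene with a near copy, went from 43.2 and 25.9 to 24.1 and 13.1 CPM (log2 −0.91, adjusted p = 0.00596), and Slc28a2b, described above, was the fourth. Other large falls were those of the synaptotagmin gene Syt6 (log2 −1.10, adjusted p = 0.0135), the transcriptional repressor gene Nacc2 (log2 −1.02, adjusted p = 0.0352) and Mylip, a ubiquitin ligase for the LDL receptor (log2 −0.90, adjusted p = 0.0398).

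**Figure D5:**
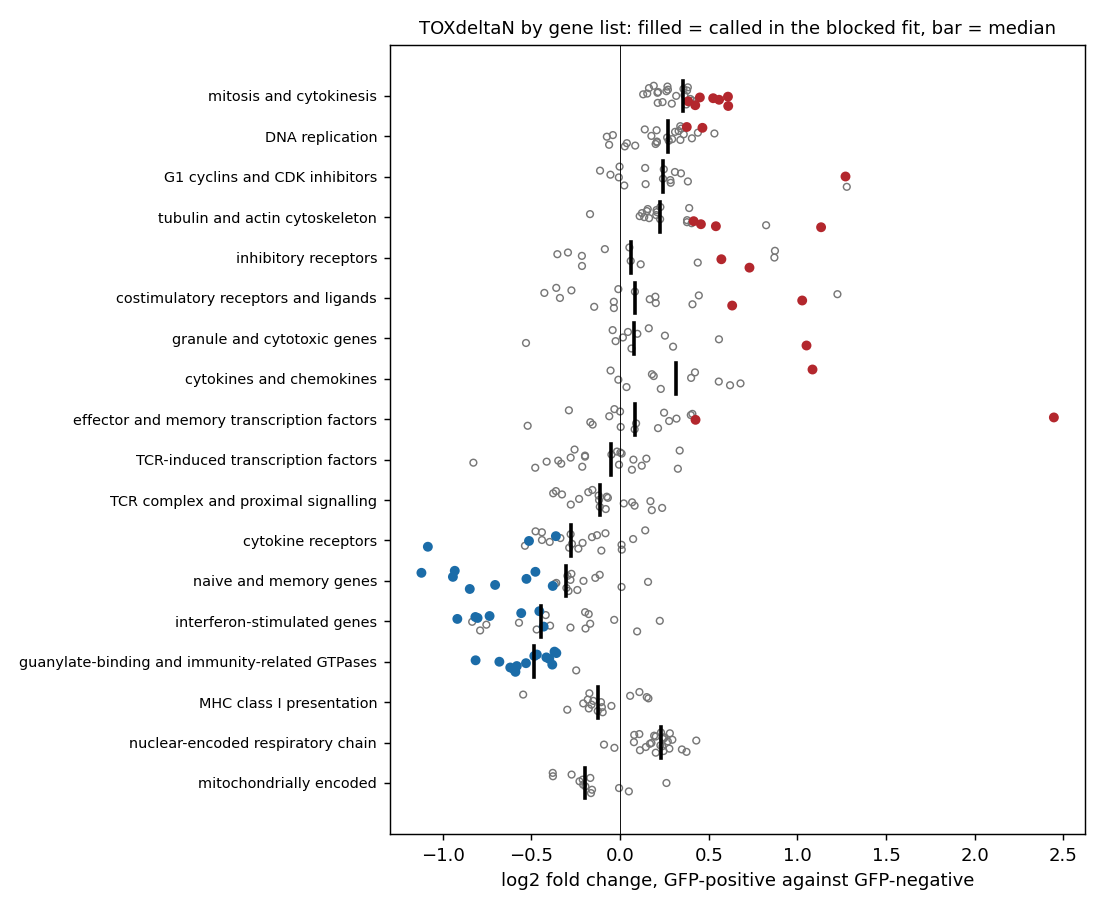
Log2 fold change of TOXdeltaN-positive against TOXdeltaN-negative cells (fit without the block, horizontal axis) for the members of 18 gene lists, with filled points called in the blocked fit (red higher, blue lower), open points not called and black bars for list medians. Calls in the cell division lists lie right of 0, and those of the GTPase, interferon, naive and cytokine receptor lists left of 0.

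Some genes of cell division rose. Of 27 mitosis and cytokinesis genes 7 rose, none fell, all 27 had a log2 change above 0 and 22 had both positive libraries above both negative ones. Of all 13329 tested genes 6771 had a log2 change above 0, and 21.1% had both positive libraries above both negative ones. The list's median was 0.36, with 0.44 in replicate number 1 and 0.24 in number 2, and 0.34 with the block and the length correction. In the blocked fit it was 0.47 without TOXdeltaN-positive replicate 2 and 0.22 without TOXdeltaN-positive replicate 1. Cdk1, the kinase that drives entry into mitosis, stood at 123 and 138 CPM in the negative and 193 and 206 CPM in the positive libraries (log2 0.61, SE 0.0842, adjusted p = 0.0122). Ube2c, the ubiquitin-conjugating enzyme of the anaphase-promoting complex, went from 179 and 187 to 275 and 284 CPM (log2 0.61, SE 0.0984, adjusted p = 0.026). Birc5, which encodes survivin, went from 219 and 224 to 308 and 328 CPM (log2 0.52, adjusted p = 0.0167), and Cdc20, the activator of the anaphase-promoting complex, from 252 and 278 to 354 and 370.2 CPM (log2 0.45, adjusted p = 0.0324). No library of one group reached the other in these 4 genes, and Aurka, Mad2l1 and Ccna2 rose too (log2 0.56, 0.38 and 0.42). Cdc20 lost its call with the block and length correction together (adjusted p = 0.0651). Mki67, the proliferation marker, was not called: it was at 500.1 and 486 CPM in the negative and 589 and 473 CPM in the positive libraries (log2 0.10, adjusted p = 0.607). With the block, 20 of the 27 were called without TOXdeltaN-positive replicate 2, 10 without TOXdeltaN-positive replicate 1 and 0 without either TOXdeltaN-negative library.

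The start regions of Cdc20 and Aurka are shown as examples of risen members, Cdc20 with both motifs searched for in this list and Aurka with one of them. They are the 250 bases before the RefSeq start in GRCm38.p6, printed in the direction of the gene: chr4:118437344-118437593 (minus strand) for Cdc20 and chr2:172370571-172370820 (minus strand) for Aurka. Capitals mark TTTGAA, the core of the cell cycle genes homology region, and CCAAT, the box read by NF-Y, on either strand.
Cdc20: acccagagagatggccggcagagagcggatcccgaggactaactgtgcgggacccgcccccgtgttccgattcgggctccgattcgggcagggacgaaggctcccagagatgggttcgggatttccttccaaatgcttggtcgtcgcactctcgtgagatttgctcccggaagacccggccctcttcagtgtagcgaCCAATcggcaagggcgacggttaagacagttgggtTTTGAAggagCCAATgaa
Aurka: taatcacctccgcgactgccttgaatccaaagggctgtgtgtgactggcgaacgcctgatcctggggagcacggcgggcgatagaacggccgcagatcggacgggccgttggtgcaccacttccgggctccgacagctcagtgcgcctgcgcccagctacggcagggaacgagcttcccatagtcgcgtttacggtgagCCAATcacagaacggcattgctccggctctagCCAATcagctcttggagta
Of 23 mitosis genes with an entry, CCAAT was found in 18, against 37.5% of all symbols, and TTTGAA in 9, against 18.3%. Among other risen members, Cdk1 and Ube2c had both motifs, and Birc5 and Mad2l1 had neither. Here too a match describes the letters and not binding, and a link of the motifs to the rise was not tested.

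DNA replication genes had a median of 0.27, with 20 of 26 higher in both positive libraries than in either negative one, but 2 called: Tyms, thymidylate synthase, from 112 and 114 to 145 and 167 CPM (log2 0.46, adjusted p = 0.0413), and the flap endonuclease gene Fen1 from 230 and 250 to 309 and 314 CPM (log2 0.38, adjusted p = 0.0468). Fen1 was not called with the length correction (adjusted p = 0.0767). Of all tested genes 0.773% were called higher and 21.1% had both positive libraries above both negative ones. Of 16 G1 cyclin and CDK inhibitor genes only Cdkn1a rose. Tubulin and actin genes gave 4 rises in 21, all tubulins, with a median of 0.23 that was 0.17 in replicate number 1, 0.34 in number 2 and 0.14 with the block and length correction; the list's median exon length, 2203 bases, was below that of all genes. Besides Tubb6, Tubb4b went from 493 and 494 to 667 and 687 CPM (log2 0.46, adjusted p = 0.0255), Tuba1b had a log2 change of 0.41 (adjusted p = 0.0306) and Tubb2a one of 0.54 (adjusted p = 0.044), which was not called with the length correction (adjusted p = 0.0772). Tubulin genes are close copies, so the split of reads among them is uncertain.

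Targets of p53 and apoptosis genes moved both ways, with 2 rises and 2 falls in 20. Phlda3, a p53-induced inhibitor of AKT, went from 16.2 and 22.8 to 29.1 and 41.2 CPM (log2 0.85, SE 0.0985, adjusted p = 0.00596). Sesn2, a stress sensor upstream of mTORC1, stood at 30.6 and 30.5 CPM in the negative and 41.9 and 45.2 CPM in the positive libraries (log2 0.51, adjusted p = 0.036). The groups were apart for both. Trp53inp1 (log2 −0.44, adjusted p = 0.0391) and Bcl2l11, which encodes the death protein BIM (log2 −0.37, adjusted p = 0.0489), fell, and the survival gene Bcl2 was not called (log2 −0.14, adjusted p = 0.417). Bcl2l11 was not called with the length correction (adjusted p = 0.0814).

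Metabolic and stress lists held few calls. Sesn2 and the asparagine synthetase gene Asns (13.8 and 20.4 CPM in the negative, 20.2 and 32.8 CPM in the positive libraries, log2 0.62, adjusted p = 0.0398) rose among 19 amino acid stress genes. Mt1, a metallothionein that binds zinc, went from 5.78 and 5.91 to 10.7 and 11.4 CPM (log2 0.91, adjusted p = 0.0348) while the zinc transporter gene Slc30a4 fell (log2 −0.65, adjusted p = 0.025), the only calls of 10. The carbonic anhydrase gene Car2 rose (log2 0.79, adjusted p = 0.0365), the only call of 21 glycolysis and hypoxia genes, and Sdf2l1 (log2 0.42, adjusted p = 0.0484), an endoplasmic reticulum chaperone subunit, the only call of 18, which the length correction ended (adjusted p = 0.0814). None of 24 cholesterol and fatty acid genes was called (median 0.14), with Idi1 the one of lowest p (log2 0.34, adjusted p = 0.0724).

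Some further lists, several of them of short or long transcripts, had no member called in the blocked fit. Leaving out TOXdeltaN-positive replicate 1 keeps replicate 2, the library with the strong length trend. The blocked medians were then 0.34 for the respiratory chain genes and 0.29 for the ribosomal protein genes. They were −0.35 for the long chromatin and RNA genes and −0.28 for the HBO1 acetyltransferase complex. The 26 nuclear-encoded respiratory chain genes, with a median exon length of 1966 bases, had a median of 0.14 in replicate number 1 and 0.31 in number 2, and Uqcrq had the lowest p (log2 0.42, adjusted p = 0.102). The 31 ribosomal protein genes had 0.0156 and 0.26, and Rpl35 a log2 change of 0.28 (adjusted p = 0.185). The 20 long chromatin and RNA genes, with a median exon length of 14556 bases, had −0.197 and −0.42, and −0.10 with the block and length correction; Kmt2c had a log2 change of −0.43 (adjusted p = 0.0576), or −0.21 with the correction. Of 13 mitochondrially encoded genes none was called, with a median of −0.196. With the block and the length correction the median was −0.33 and mt-Atp6 was called lower (log2 −0.43, adjusted p = 0.0444). The blocked median was −0.36 without TOXdeltaN-positive replicate 2 and −0.0306 without TOXdeltaN-positive replicate 1, and mt-Cytb had the lowest p (log2 −0.39, adjusted p = 0.142). Ribosome biogenesis genes (22, median 0.0085, Nhp2 log2 0.33 and adjusted p = 0.113), RNA-binding and nuclear proteins (17, median −0.16, Tatdn2 log2 −0.79 and adjusted p = 0.0898) and the HBO1 acetyltransferase complex (10, median −0.15, Brd1 log2 −0.28 and adjusted p = 0.142) had no call. The HBO1 median was 0.0301 in replicate number 1 and −0.25 in number 2. The CD8 markers Cd8a (log2 0.0824, adjusted p = 0.565), Cd3e (log2 −0.0818, adjusted p = 0.574) and Cd8b1 (log2 −0.27, adjusted p = 0.1) were not called in the blocked fit, and the length correction called Cd8b1 lower (log2 −0.41, adjusted p = 0.0153).

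The naming rule also took the genes with the widest gap between the TOXdeltaN-positive libraries. Adam19, a membrane protease gene, was at 126 CPM in replicate 1 and 54.5 in replicate 2, around the negative libraries at 120.1 and 85.9 CPM. Oas3, an interferon-induced synthetase gene, was at 38.4 and 14.5 CPM against 45.7 and 35.8, and Tsix, which overlaps Xist on the other strand so that their reads cannot be told apart, at 40.8 and 17.1 CPM against 39.6 and 36.2. None of the 3 was called (adjusted p = 0.364, 0.128 and 0.336 in the blocked fit). In the other direction, Lad1, which encodes ladinin, stood at 25.6 and 58.6 CPM in the positive and 10.9 and 37.6 CPM in the negative libraries, and was called (log2 0.91, adjusted p = 0.026). Bcl2a1d, a BCL2-family survival gene with close copies, was at 20.6 and 44.2 CPM against 14.3 and 28.9 and was not (adjusted p = 0.114). In Lad1 and Bcl2a1d replicate 2 was the higher library in both groups, whereas the gap in Adam19, Oas3 and Tsix was wide among the positive libraries and smaller among the negative ones.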

How the data were processed

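RNA-seq measured gene expression in 8 libraries, 2 per group, grouped by the vector and GFP status in the labels. The authors deposited gene-level RSEM expected counts (estimated counts, not normalised) in whole numbers, and per the submitters' processing notes bcl2fastq 2.20, cutadapt, STAR 2.6.1 and RSEM 1.2.28 were used on GRCm38. The annotation release is not given in the sources used here. The table had 31907 rows. Its 92 ERCC rows, all at 0, were left out, and 31815 genes stayed. Symbols come from the deposited row identifiers. Exon lengths and coordinates come from GENCODE M21 for the same build (31173 identifiers matched with their version, 31748 without it). Totals were 25059112 to 31240067 counts per library, and the chi-square per degree of freedom between replicates was 11.939 to 41.88.

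In R 4.3.3 with edgeR 4.0.16, filterByExpr kept 13329 genes and TMM factors were 0.9894 to 1.0203. A quasi-likelihood F-test on 4 group means from all 8 libraries gave the fit without a block, with Benjamini-Hochberg adjustment and a threshold of 0.05. On simulated counts with known changes the test was checked before use. The simulation gave all libraries the same spread and all groups the same replicate shift, without a length trend. It therefore does not cover the wider spread and length trend of the TOXdeltaN-positive pair, or a wrong pairing. Log2 ratios by library have 0.1 CPM added. The labels do not say what a replicate number marks. Same-numbered libraries deviated together in all 6 pairs of groups (correlations 0.168 to 0.241 across genes), so the numbers were taken to pair the libraries. No label gives this pairing, the correlations do not establish it, and it was inferred from the same libraries that were tested. The blocked value is given where it changes a call. Alternatives were RLE and upper-quartile scaling, no filter or a mean of 8 CPM, the TOXdeltaN libraries alone, DESeq2 1.42.0, limma-voom 3.58.1, an offset for exon length (lowess, span 0.3) with and without the block, and leaving out each library with and without the block.

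Named were the genes called without the block; the 12 largest rises and the 12 largest falls called in the blocked fit at 2 CPM or more, in the same direction in both replicate numbers, without predicted genes and pseudogenes; up to 4 called members of each of the 39 gene lists, or the member of lowest p; sentinel genes of T cell biology; and the 3 genes in each direction with the largest gap between the TOXdeltaN-positive libraries at 20 CPM or more. Other list members are named to account for a list's calls, and some genes of the rule and lists are not reported here. The libraries, members and lists were chosen with earlier results of these data known. Promoter windows come from RefSeq GRCm38.p6, where a script searched both strands.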

Additional observations from a re-analysis of the deposited data

How the results depend on the processing

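The number of genes called for TOXdeltaN was 4 in edgeR without the block and with the length offset, 5 with RLE factors and with limma-voom, and 3 with upper-quartile scaling. It was 220 with the replicate block, 277 with the block and the length offset, 516 without a low-count filter, 9 at a mean of at least 8 CPM, 115 with DESeq2 and 0 with the TOXdeltaN libraries alone (1048 at an unadjusted p under 0.05). Leaving out 1 library without the block gave 0 to 1571, with 1571 when TOXdeltaN-positive replicate 1 was out and 0 for each other library. In the blocked fit, omitting a TOXdeltaN-negative library left 0 calls (replicate 1) or 8 (replicate 2). Omitting a TOXdeltaN-positive library left 2650 (replicate 1) or 290 (replicate 2). The blocked count was 49 or 47 when a GFP-negative TOXFL library was omitted and 114 when a GFP-positive one was, whichever it was. The cause was not tested. The 220 genes kept their direction in every setting where they were fitted, except that 218 did without TOXdeltaN-positive replicate 2 and without the block. For the difference of the GFP effects the count was 0 in edgeR with or without the block, 45 without a filter and 5 with DESeq2. Omissions without the block gave 0 to 1, and with the block 449 and 4 without TOXdeltaN-positive replicates 1 and 2 and 18 without TOXFL-positive replicate 1.

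Some named genes changed sign, and the cause was not tested. Havcr2 had a log2 change of 0.059 with limma-voom, Ctla4 one of −0.031 with the length offset and −0.034 with block and offset, Tnf −0.083 and −0.087 in those fits, and Il7r −0.002 without a filter. Over the omissions of a library without the block, the log2 changes ran from −0.92 to 0.288 for Adam19, −0.067 to 1.177 for Bcl2a1d, −0.162 to 0.25 for Ctla4, −2.732 to 2.734 for Havcr2, −0.216 to 2.858 for Hbb-bs, −0.259 to 0.596 for Ifng, −0.075 to 0.084 for Il7r and −1.094 to 0.236 for Klrb1c. They ran from −0.138 to 0.421 for Lag3, −0.064 to 0.256 for Mki67, −0.387 to 0.729 for Nr4a1, −0.048 to 0.735 for Nr4a2, −0.453 to 2.373 for Penk, −0.287 to 0.292 for Prf1, −0.079 to 0.159 for Tnf and −1.153 to 0.105 for Tsix. Without TOXdeltaN-negative replicate 1 and with the block they were 0.122 for Klrb1c, 2.628 for Havcr2, −0.122 for Tnf and −0.04 for Nr4a1. Without TOXdeltaN-negative replicate 2 and with the block they were −0.1 for Il7r and 0.049 for Prf1. Without TOXdeltaN-positive replicate 1 and with the block they were −0.219 for Hbb-bs, −0.04 for Tnf and −0.049 for Mki67. Without TOXdeltaN-positive replicate 2 and with the block they were 0.532 for Havcr2, −0.05 for Ctla4, −0.03 for Il7r, 0.108 for Prf1, −0.355 for Ifng, 0.037 for Tsix and 0.037 for Adam19. Of the 39 list medians 22 kept their sign in every setting that gave a value. Among these, the GTPase median ran from −0.684 to −0.301 and the mitosis median from 0.219 to 0.473. The replicate block changed the call of 58 named genes, all to called, and no other call. Havcr2 and Il2 had few counts, and what limited their test was not tested.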

Other observations

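The genes in these paragraphs were chosen after their values were seen, from the 220 of the blocked fit, and no theme was tested. The 4 genes of the NDC80 complex, which ties spindle microtubules to the kinetochore, all rose: Ndc80 went from 82.2 and 91.6 CPM without GFP to 118 and 118 CPM with it (log2 0.44, adjusted p = 0.0391). Nuf2, Spc24 and Spc25 rose by a log2 of 0.49, 0.52 and 0.45 (adjusted p = 0.0398, 0.0255 and 0.0382). Among the genes of the centromere, Cenpa, the histone variant that marks it, went from 219 and 278 to 304 and 375 CPM (log2 0.46, adjusted p = 0.0277), and Cenph, Cenpm and Cenpp rose too (log2 0.57, 0.51 and 0.58). The groups did not overlap for Ndc80 and Cenpa. Cenph lost its call with the block and the length correction (adjusted p = 0.0605). The centromere genes Cenpe and Cenpf, of the mitosis list, were not called in the blocked fit.

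Txnip, Pik3ip1, Tsc22d3, Slfn1 and Gvin1 were among the genes that fell. Txnip, a brake on glucose uptake, went from 498 and 400.2 to 350 and 272 CPM (log2 −0.53, adjusted p = 0.0217). Pik3ip1, an inhibitor of PI3 kinase, went from 113 and 103 to 79.8 and 71.2 CPM (log2 −0.51, adjusted p = 0.0306). Tsc22d3, the glucocorticoid-induced leucine zipper gene, went from 78.9 and 83.9 to 57.6 and 56.9 CPM (log2 −0.51, adjusted p = 0.0271), and Slfn1, a schlafen gene of resting T cells with close copies, from 126 and 101 to 81.3 and 69.9 CPM (log2 −0.58, adjusted p = 0.0154). In each of these the positive libraries lay below the negative ones. Gvin1, a giant GTPase gene induced by interferon and outside the GTPase list, fell from 640.2 and 525 to 435 and 303 CPM (log2 −0.67, adjusted p = 0.0104).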
